A study of Bos taurus with 8 samples.

Results

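The genes described here are the cyclins, the cyclin-dependent kinases and the regulators of mitosis that the array platform names by symbol. The rule took symbols that begin with CCNA to CCNL and a digit, with CDK and a number, or with CDC and a number other than the CDC42 names, together with AURKA to AURKC, PLK1 to PLK4 and the BUB1 and BUB3 names. It found 71 of the 15229 named genes. Of these, 67 had a probe above the detection filter, as did 11718 of all named genes. The 4 others, CCND1, CDK17, CDK18 and CDK5R1, had 1 probe each, which exceeded background in at most 3 of 16 readings. The rule uses names alone, so it also takes in genes whose best known work lies outside the cell cycle, such as the cyclin L partner CDK11 and the transcription kinases CDK8, CDK9 and CDK12. It used no measured value except to pick, for each gene, the probe with the highest mean intensity.

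RNA was taken from bovine blastocysts, the hollow embryos of outer trophectoderm cells and an inner cell mass that form about a week after fertilisation in culture. All embryos came from oocytes of abattoir ovaries that were matured, fertilised and grown in vitro. The groups differed in bovine insulin in the maturation medium, at 0.1 µg/ml (INS0.1), at 10 µg/ml (INS10), or with none (control). Each of the 8 arrays, 4 for each dose, set insulin RNA against control RNA in opposite dyes, and replicates 3 and 4 carried the dyes the other way round from replicates 1 and 2. The labels call the 4 replicates of a condition biological, with no number of embryos stated in the labels. The labels do not say whether control RNA of 1 replicate number is the same extract at both doses, so the 8 control readings may not be independent and the doses may share controls. The RNA was amplified in 2 rounds before labelling. In RNA from whole embryos, fewer cells of a type and less RNA per cell cannot be told apart.

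Cyclins rise and fall through the division cycle and switch on their kinases. D cyclins with CDK4 and CDK6 act in early growth phase, cyclin E and cyclin A with CDK2 drive DNA replication, and cyclin B with CDK1 drives mitosis. CDC25 phosphatases remove the inhibitory marks from these kinases, Aurora and Polo kinases build the spindle, BUB proteins hold the spindle checkpoint, and the anaphase-promoting complex destroys cyclin B so that cells can leave mitosis. A blastocyst is made by cleavage divisions, and much of this machinery is first supplied by the oocyte and later by the embryo's own genome.

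Values are log2 ratios of insulin over control RNA on the same array, so that 0 means equal and positive means higher with insulin. Each probe was fitted with limma, with an effect for each dose and a dye effect, and a gene is called changed where the adjusted p over all 29384 kept probes was under 0.05. One array, replicate 1 of INS0.1, was unlike the rest. In 274 probes that rose in a fit of the INS10 arrays by themselves, its median log2 ratio was 0.05, while those of the other INS0.1 arrays were 0.81, 0.97 and 0.80. For the gene CDC2L1, the INS0.1 value without it is given below. The gene CDK5 was not called without it, and its adjusted p is given only as a range over several single arrays left out. For the genes of the further lists and the markers, no values without it are given. Median spot intensities were 162 to 254 in Cy5 and 232 to 346 in Cy3.

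With both doses averaged, 2 of the 67 genes rose with insulin and 0 fell. They were CDC2L1, whose current RefSeq symbol is CDK11B, and CDK5, and both carry the CDK name without belonging to the core cell cycle kinases. Among all named genes, 2.12% passed as higher and 0.196% as lower, so a count of 2, or 2.99% of the 67, lies close to the background. At an unadjusted p under 0.05 the count was 8 of 67, or 11.9%, beside 11.8% of all named genes. The median log2 ratio was −0.03 over the 67 genes and −0.01 over all named genes, and 29 of the 67 were above 0. A single gene of the 67, CDC2L1, was higher on 8 of 8 arrays and 0 were lower on 8 of 8, where 1.66% and 0.728% of all named genes were.

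**Figure D1:**
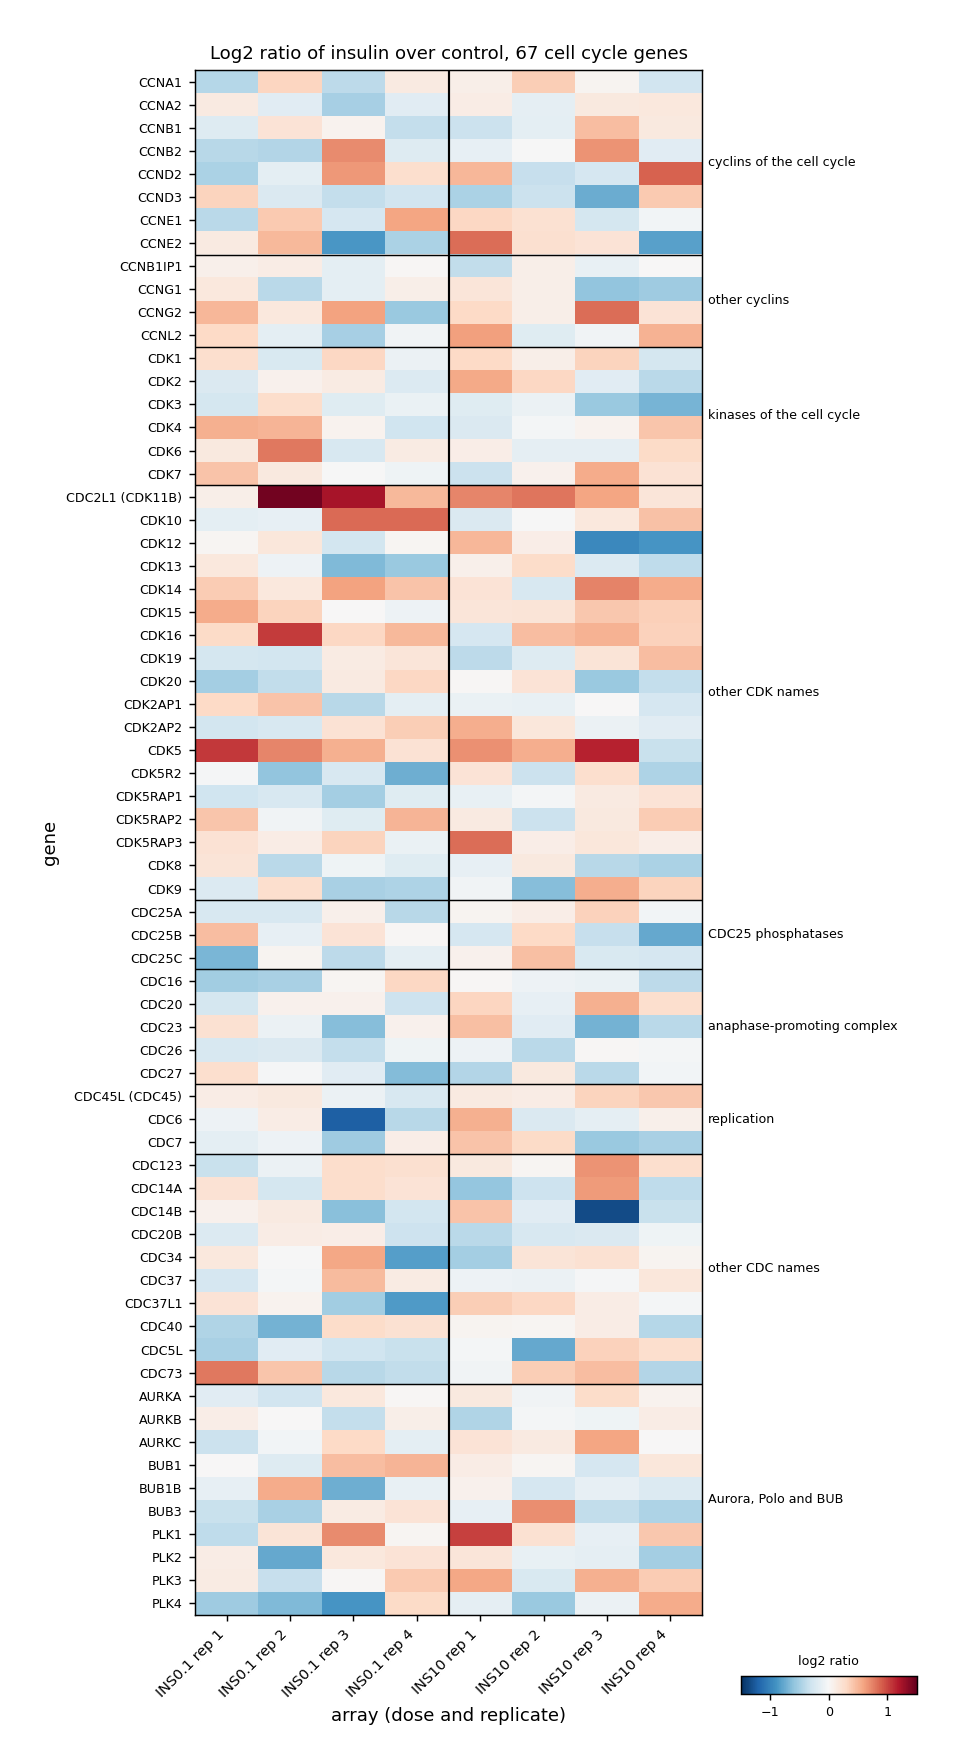
Log2 ratio of insulin over control RNA for the 67 measured genes (rows, in groups by role) on the 4 INS0.1 and the 4 INS10 arrays (columns), from blue where insulin RNA was lower to red where it was higher. CDC2L1 is red on all 8 arrays and CDK5 on 7, while most other genes hold arrays of both signs.

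CDC2L1 encodes CDK11, a kinase that binds L-type cyclins and acts in transcription and pre-mRNA splicing, with a shorter form known in human cells to work in mitosis. Its normalised intensity on the INS0.1 arrays was 898 for insulin against 842 for control RNA on replicate 1, 2253 against 824 on replicate 2, 1723 against 730 on replicate 3, and 1256 against 899 on replicate 4. On the INS10 arrays it was 1245 against 749, 1714 against 985, 1404 against 929, and 1017 against 893. The insulin RNA was the brighter on every array and in both dye orientations, by little on INS0.1 replicate 1 and INS10 replicate 4. The 8 insulin readings, from 898 upward, and the 8 control readings, up to 985, overlapped across arrays. The log2 ratio averaged 0.70 (SE 0.14, 95% interval 0.41 to 0.98), a fold of 1.62, with a limma adjusted p of 0.00659. The call held when any 1 of the 8 arrays was left out, with log2 ratios of 0.58 to 0.86 and limma adjusted p of 0.000277 to 0.0484, and it was lost with a trended, robust variance prior (adjusted p = 0.114), under which 0 of all 29384 probes were called. The gene was measured by 1 probe, whose sequence was not used here. Human CDK11B has a near-identical copy, and whether this probe would separate such a copy was not tested.

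By dose, the log2 ratio of CDC2L1 was 0.82 at INS0.1 (SE 0.19, limma adjusted p 0.105) and 0.58 at INS10 (SE 0.19, limma adjusted p 0.349). Neither dose passed alone. Without INS0.1 replicate 1 the INS0.1 value was 1.13 with a limma adjusted p of 0.00423. With the replicate number as a fixed block and separate dye effects for the slides, the INS0.1 value was 0.82 with a limma adjusted p of 0.00681. The fixed block takes out differences between replicate numbers that both doses share, so its p does not count that part of the spread. CCNL2, which encodes a cyclin L that partners CDK11, and which is named here after its values were seen, had a log2 ratio of 0.06 (SE 0.12, limma adjusted p 0.917) and of −0.03 on its other probe.

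CDK5 is a kinase that is switched on by the non-cyclin activators p35 and p39 and is best known from neurons. Its insulin and control readings on the INS0.1 arrays were 243 against 116, 328 against 198, 326 against 224, and 319 against 274. On the INS10 arrays they were 232 against 145, 250 against 171, 327 against 147, and 201 against 253. Insulin RNA was brighter on 7 arrays and dimmer on INS10 replicate 4. These readings lie close to background, which insulin RNA exceeded on 8 of 8 arrays and control RNA on 4 of 8. The mean log2 ratio was 0.57 (SE 0.13, 95% interval 0.30 to 0.85), with a limma adjusted p of 0.0259. It includes the 4 arrays, 1 at INS0.1 and 3 at INS10, on which the control level was not above background.

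CDK5 did not pass (limma adjusted p 0.0516 to 0.127) when replicate 1, 2 or 3 of either dose was left out, 1 array at a time, nor when the arrays of a number were averaged to 1 value (adjusted p 0.116). The other probes of the gene above the filter gave log2 ratios of 0.02 and −0.17, with limma adjusted p of 0.984 and 0.688, and the mean over the 3 probes was 0.14 (adjusted p 0.729). Those other probes exceeded background in 10 and 6 of 16 readings, the second in 0 of 4 INS0.1 readings. Their ratios and the mean thus also rest on readings near background. By dose the brightest probe gave 0.64 at INS0.1 (limma adjusted p 0.224) and 0.51 at INS10 (limma adjusted p 0.475). With the replicate number as a fixed block and separate dye effects for the slides, the limma adjusted p at INS0.1 was 0.0253. As for CDC2L1, the fixed-block p leaves out the spread between replicates that both doses share. Of the activator genes, p39 (CDK5R2) had a log2 ratio of −0.24 (SE 0.12, limma adjusted p 0.516) and is named here after its values were seen, and p35 (CDK5R1) was not above background.

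**Figure D2:**
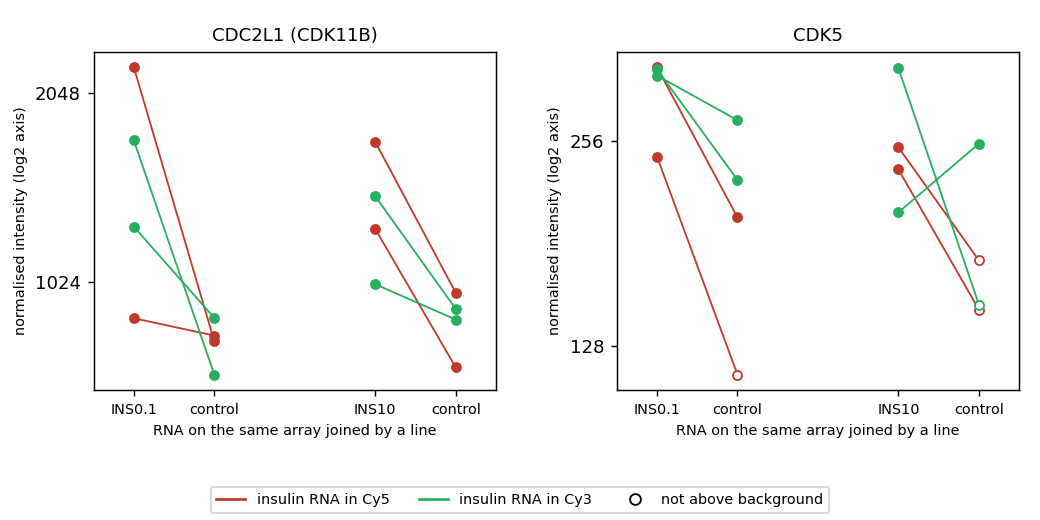
Normalised intensity (log2 axis) of insulin and control RNA for CDC2L1 and CDK5, with a line joining the readings of 1 array, coloured by the dye of the insulin RNA; open points were not above background. All 8 lines of CDC2L1 and 7 of 8 of CDK5 run down from insulin to control, and 4 control readings of CDK5 are open.

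The 18 kinases and kinase-associated genes of the CDK name outside the core cycle had a median log2 ratio of 0.02, ranging from −0.24 to 0.70, and held both calls. CDK16 and CDK14, which are membrane-associated kinases partnered by cyclin Y, came next. On the INS0.1 arrays the log2 ratio of CDK16 was 0.29, 1.04, 0.31 and 0.49, and on the INS10 arrays it was −0.25, 0.47, 0.52 and 0.34. CDK14 gave 0.38, 0.16, 0.61 and 0.43 at INS0.1 and 0.20, −0.24, 0.75 and 0.55 at INS10. Each was above 0 on 7 of 8 arrays.

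Averaged over the doses, CDK16 had a log2 ratio of 0.40 (SE 0.12) with a limma adjusted p of 0.121, and CDK14 one of 0.36 (SE 0.11) with a limma adjusted p of 0.126. Neither passed. With the replicate number as a fixed block and separate dye effects for the slides, both passed, with adjusted p of 0.0122 and 0.0269, and CDK16 also passed at INS0.1 with 0.0372. The count of genes called then became 4 of 67 for both doses averaged and 3 of 67 for INS0.1. That fit takes out differences between replicate numbers that both doses share, so its p-values leave out this part of the spread between replicates. With the arrays of a number averaged to 1 value, neither passed (adjusted p 0.285 for CDK16 and 0.267 for CDK14), and the count was 1 of 67. The cyclin of these kinases, CCNY, named after its values were seen, had a log2 ratio of 0.04 (SE 0.11, limma adjusted p 0.944).

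Among the dimmer kinases, CDK15, a relative of CDK14, had a log2 ratio of 0.25 (SE 0.11, limma adjusted p 0.415), with INS10 RNA above background on 0 of 4 arrays, INS0.1 RNA on 4 of 4 and control RNA on 3 of 8, so that its INS10 level is only a bound. CDK10, a partner of cyclin M in human cells, had 0.22 (SE 0.11, limma adjusted p 0.483) and exceeded background in 7 of 16 readings. CDK9, the kinase that releases paused RNA polymerase II with cyclin T, had −0.09 (SE 0.13, limma adjusted p 0.883). None of these values passed, and those of CDK15 and CDK10 rest on readings near background.

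None of the 8 measured cyclins of the cell cycle passed in limma for both doses averaged or for either dose, and 0 had an unadjusted p under 0.05 there. Their mean log2 ratios ran from −0.21 to 0.13, with a median of −0.02. For all 8 the 95% interval of the mean lay within a fold of 1.5 either way, a bound of 0.58 on the log2 scale that was chosen with these data known. The same held for 64 of the 67 genes, or 95.5%, beside 94.1% of all named genes. The 3 exceptions were CDC2L1, CDK5 and CDK16. Of the 8 cyclins, CCNA1 and CCNE2 exceeded background in 14 and 13 of 16 readings. Their intervals rest in part on readings near background.

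Cyclin B1 (CCNB1), which activates CDK1 at mitosis, had log2 ratios of −0.19, 0.21, 0.06 and −0.36 at INS0.1 and of −0.33, −0.15, 0.46 and 0.15 at INS10. Insulin RNA was above control on 4 arrays and below on 4, and the mean was −0.02 (SE 0.11, limma adjusted p 0.980). Cyclin A2 (CCNA2), which acts in replication and at entry to mitosis, had a mean of −0.05 (SE 0.11, limma adjusted p 0.924). Cyclin B2 (CCNB2) had a mean of 0.01 (SE 0.12, limma adjusted p 0.994) but spread from −0.43 to 0.71 at INS0.1 and from −0.17 to 0.68 at INS10, with replicate 3 the highest at each dose.

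Of the cyclins of the growth phase, cyclin D2 (CCND2) ran from −0.48 to 0.65 at INS0.1 and from −0.35 to 0.88 at INS10, with a mean of 0.13 (SE 0.13, limma adjusted p 0.806). Cyclin D3 (CCND3) had −0.21 (SE 0.13, limma adjusted p 0.641) and cyclin E1 (CCNE1) 0.07 (SE 0.12, limma adjusted p 0.906). Cyclin E2 (CCNE2) had log2 ratios of 0.14 and 0.48 on the INS0.1 arrays with insulin RNA in Cy5 and of −0.87 and −0.48 on those with it in Cy3. At INS10 it had 0.84 and 0.24 with insulin RNA in Cy5, and 0.20 and −0.81 with it in Cy3. Among the brightest probes of the 67 genes it was the 1 whose dye effect passed (0.46 on the log2 scale, limma adjusted p 0.0352). The insulin effect of CCNE2 with that term was −0.03 (SE 0.12, limma adjusted p 0.964). Dye effects also passed on dimmer probes of CDK12, CCNA2, AURKB, CDK5RAP1, CDK4 and CDK13, from −0.61 to 0.52 (limma adjusted p 0.00305 to 0.0358).

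On their brightest probes, the 6 core kinases had a median log2 ratio of 0.10, with 5 of 6 above 0. In limma 0 passed, and 1, CDK3, had an unadjusted p under 0.05. The dimmer probes of CDK2, CDK4 and CDK7 gave log2 ratios of −0.17, −0.12 and −0.10. They exceeded background in 5, 9 and 14 of 16 readings, so they rest in part on readings near background. The sign of these genes thus differed between probes, and none of these means passed on either probe. CDK1, the mitotic kinase, gave 0.26, −0.22, 0.31 and −0.08 at INS0.1 and 0.29, 0.09, 0.33 and −0.26 at INS10. Its mean of 0.09 (SE 0.11, limma adjusted p 0.854) was smaller than the spread between arrays of 1 dose. CDK2, the partner of cyclins E and A, had a mean of 0.01 (SE 0.11, limma adjusted p 0.992).

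The D-cyclin kinases CDK4 and CDK6 had means of 0.13 (SE 0.12, limma adjusted p 0.786) and 0.12 (SE 0.12, limma adjusted p 0.802). CDK6 exceeded background in 12 of 16 readings. CDK7, which phosphorylates and activates the other cycle kinases, had 0.13 (SE 0.12, limma adjusted p 0.777). CDK3, known for exit from rest in human cells, was lower on 7 of 8 arrays, at −0.23 (SE 0.11, limma adjusted p 0.475) for both doses and −0.38 at INS10 (limma adjusted p 0.552), and exceeded background in 6 of 16 readings.

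The CDC25 phosphatases, which switch the kinases on, had mean log2 ratios of −0.05 for CDC25A, −0.06 for CDC25B and −0.14 for CDC25C (SE 0.11, 0.12 and 0.12), with limma adjusted p of 0.930, 0.915 and 0.744. All 3 means lay below 0 on the brightest probes and none passed. The dimmer CDC25B probes above the filter gave 0.07 and 0.07. The dose values of the 3 genes differed in sign, with CDC25A at −0.20 and CDC25C at −0.29 for INS0.1 and at 0.11 and 0.01 for INS10. CDC25B ran the other way, at 0.14 for INS0.1 and −0.27 for INS10.

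**Figure D3:**
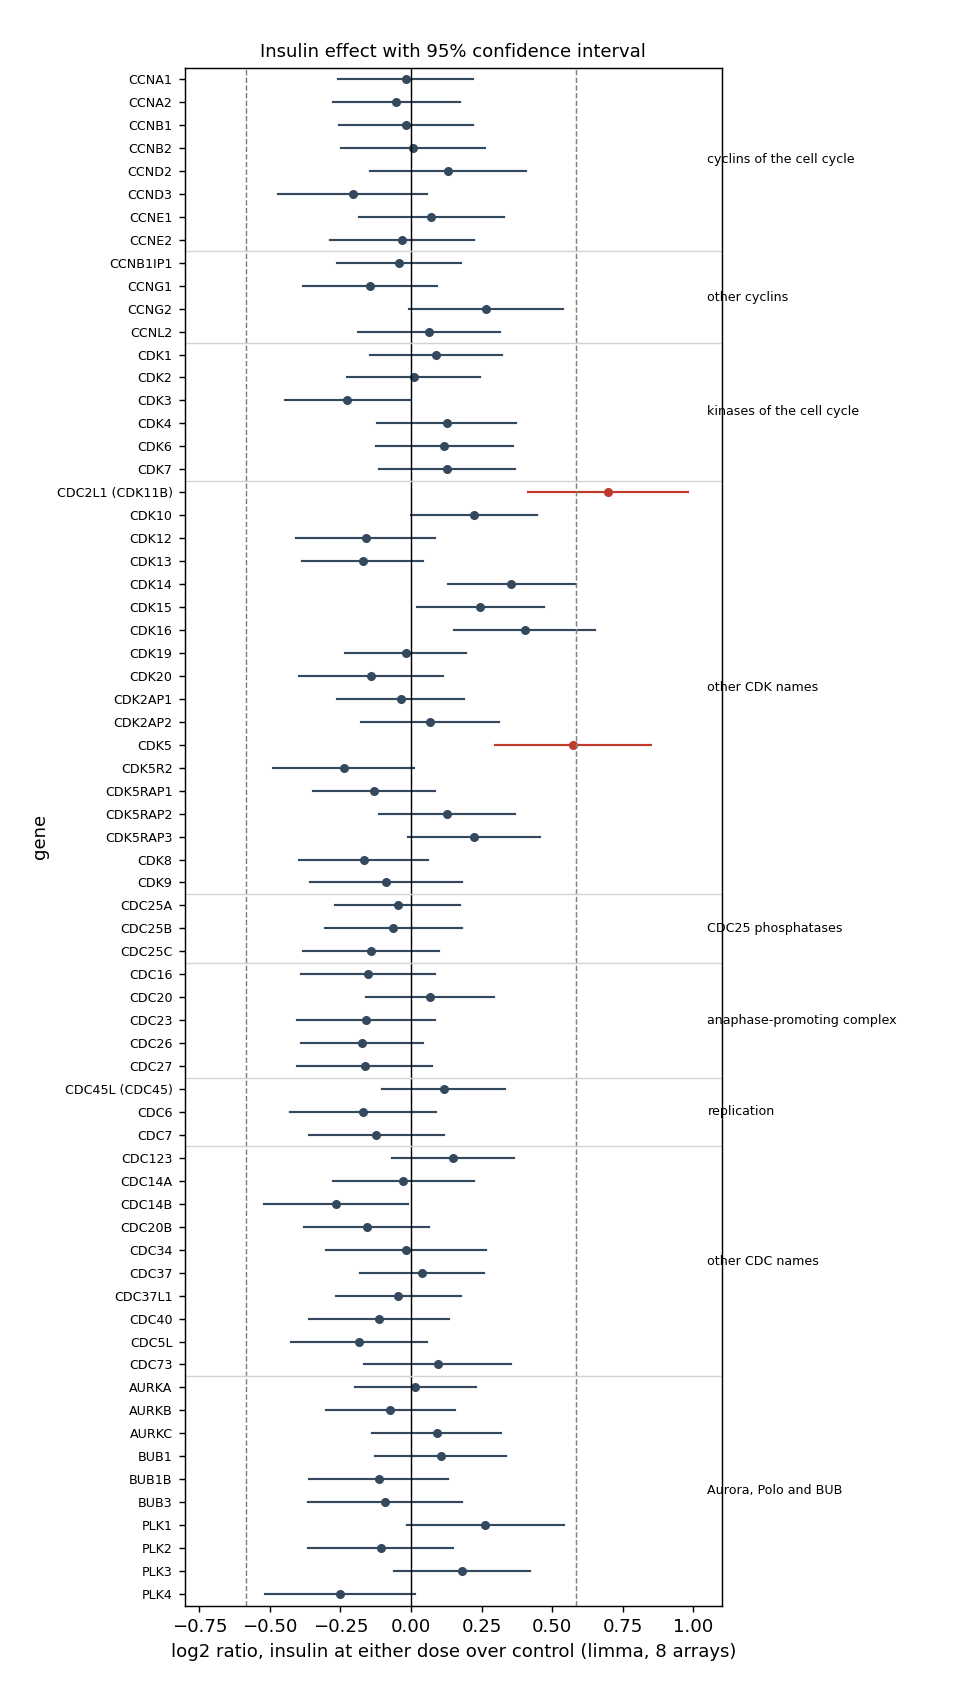
Mean log2 ratio of insulin over control over both doses with its 95% confidence interval from limma for each of the 67 genes, grouped by role; red marks genes with an adjusted p under 0.05 and dashed lines a fold of 1.5. CDC2L1 and CDK5 lie at 0.70 and 0.57, and the other means lie between −0.27 and 0.40.

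The anaphase-promoting complex is the ubiquitin ligase that ends mitosis, and its CDC-named subunits were measured above background in all 16 readings. CDC27, a subunit that binds the activators, had log2 ratios of 0.26, −0.01, −0.16 and −0.66 at INS0.1 and of −0.43, 0.14, −0.41 and −0.04 at INS10. Its mean was −0.16 (SE 0.11, limma adjusted p 0.695), and −0.34 on its other probe (limma adjusted p 0.207). The subunits CDC16, CDC23 and CDC26 had means of −0.15 to −0.17. CDC20, which activates the complex, had a mean of 0.07 (SE 0.11, limma adjusted p 0.899), with −0.11 at INS0.1 and 0.25 at INS10. The median over the 5 genes was −0.16, and 0 passed in limma or had an unadjusted p under 0.05. The 11 other measured subunits and partners of the complex, from a list chosen with results of these data known, had a median of 0.10, with 0 called. Of that list FZR1, which encodes the late-mitosis activator, had the smallest p, at 0.33 (SE 0.12, limma adjusted p 0.236).

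Of the replication factors, CDC6, which loads the replicative helicase at origins, had log2 ratios of −0.08, 0.11, −1.23 and −0.42 at INS0.1 and of 0.54, −0.22, −0.14 and 0.07 at INS10. The lowest value, on INS0.1 replicate 3, stood below all others of the gene, and the mean was −0.17 (SE 0.12, limma adjusted p 0.710). CDC45L (current symbol CDC45), a part of the moving helicase, had 0.12 (SE 0.11, limma adjusted p 0.780). CDC14B, which encodes a phosphatase that opposes the cycle kinases, had a mean of −0.27 (SE 0.12, limma adjusted p 0.453), the lowest of the 67. It ran from −1.34 on INS10 replicate 3 to 0.42 on INS10 replicate 1.

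Among the Aurora, Polo and BUB genes, 0 of 10 passed in limma in any comparison, with PLK4 at INS0.1 the 1 unadjusted p under 0.05, and the median for both doses was −0.03. The Aurora kinases, which act at centrosomes, at kinetochores and in germ cells, had means of 0.02 for AURKA (SE 0.10, limma adjusted p 0.983), −0.07 for AURKB (SE 0.11, limma adjusted p 0.884) and 0.09 for AURKC (SE 0.11, limma adjusted p 0.847). AURKA stayed between −0.29 and 0.27 on all 8 arrays. The checkpoint genes BUB1, BUB1B and BUB3 had means of 0.10, −0.11 and −0.09 (SE 0.11, 0.12 and 0.13), with limma adjusted p of 0.818, 0.811 and 0.875.

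The Polo kinases lay further apart. PLK1, which drives entry into mitosis and spindle assembly, had log2 ratios of −0.38, 0.20, 0.71 and 0.03 at INS0.1 and of 1.02, 0.23, −0.12 and 0.41 at INS10. Its mean was 0.26 (SE 0.13, limma adjusted p 0.526), and its other probe gave −0.12. PLK4, the kinase that starts centriole duplication, had −0.54, −0.66, −0.89 and 0.29 at INS0.1 and −0.13, −0.56, −0.08 and 0.56 at INS10. It was below 0 on 3 of 4 INS0.1 arrays, at −0.45 for that dose (limma adjusted p 0.524), and at −0.25 for both (SE 0.13, limma adjusted p 0.529). PLK2, a Polo kinase known for stress and centriole roles, had −0.11 (SE 0.12, limma adjusted p 0.834).

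**Figure D4:**
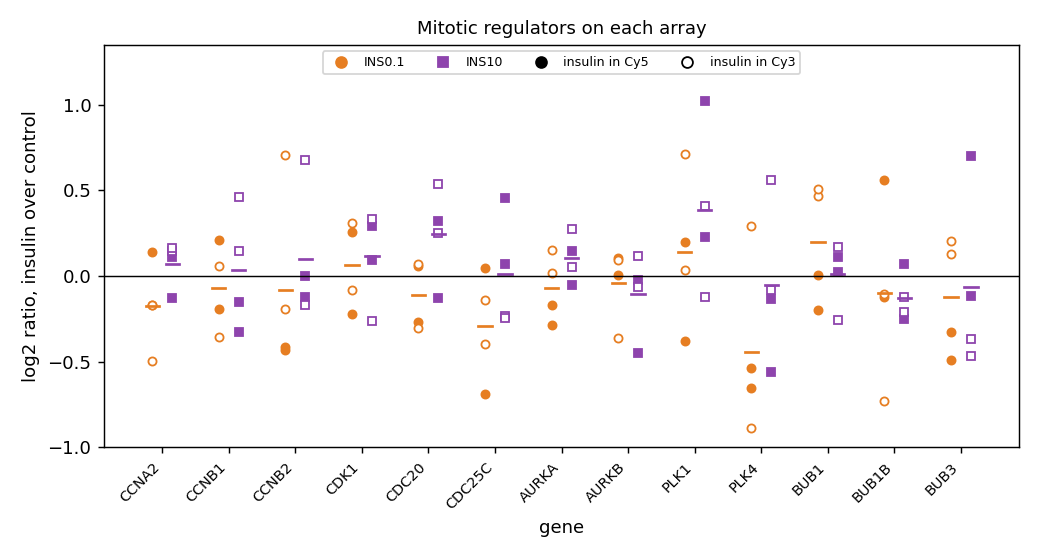
Log2 ratio of insulin over control on each array for 13 regulators of mitosis, with INS0.1 in orange and INS10 in purple, filled where insulin RNA was in Cy5, and a bar at each dose's mean. Points of each gene lie on both sides of 0 for every gene shown, with values from −0.89 (PLK4) to 1.02 (PLK1).

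Neither dose by itself called a gene of the 67, where 0.145% of all named genes passed at INS0.1 and 0.589% at INS10 by limma. At an unadjusted p under 0.05 the counts were 9 of 67 at INS0.1 and 3 of 67 at INS10, beside 8.8% and 7.89% of all named genes. The median log2 ratio over the 67 was −0.07 at INS0.1 and 0.05 at INS10, and 0.00 over all named genes at each dose. The median SE was 0.16 for each dose, and the 95% interval stayed within a fold of 1.5 for 53 of the 67 genes at each dose, or 79.1%, beside 78.2% of all named genes at INS0.1 and 80.1% at INS10.

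Set directly against each other, INS10 and INS0.1 differed in 0 of the 67 genes and in 0% of all named genes by limma, with 1 of 67 and 2.85% at an unadjusted p under 0.05. The gene with that p was CDC37L1, which encodes a relative of the kinase co-chaperone CDC37. Its log2 ratios were 0.37, 0.31, 0.11 and −0.03 at INS10, against 0.20, 0.05, −0.52 and −0.85 at INS0.1. The groups overlapped, and the difference was 0.47 with a limma adjusted p of 0.9999 over all probes and an unadjusted p of 0.0409.

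The next differences between INS10 and INS0.1 were 0.47 for CDC6, −0.41 for CDC25B, 0.36 for CDK5RAP1, which encodes a protein that binds CDK5 activators, 0.36 for CDC20 and 0.39 for PLK4. None passed. The 95% intervals of the dose difference stayed within a fold of 1.5 for 20 of 67 genes, or 29.9%, beside 36.7% of all named genes. Each slide held 1 dose, so dose and slide cannot be told apart in this comparison.

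Where a gene had several probes above the filter, their values were compared. Of the 67 genes, 24 had 54 such probes between them, and for 7 of the 24 all probes had the same sign as the brightest. None of the 30 probes other than the brightest passed in any comparison, where 1.65% of all 29384 kept probes passed for both doses averaged. Some of the 30 lay near background, down to 4 of 16 readings above it for a CDK12 probe. The range of log2 ratios over the probes of 1 gene had a median of 0.18 and was largest for CDK5, at 0.74.

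**Figure D5:**
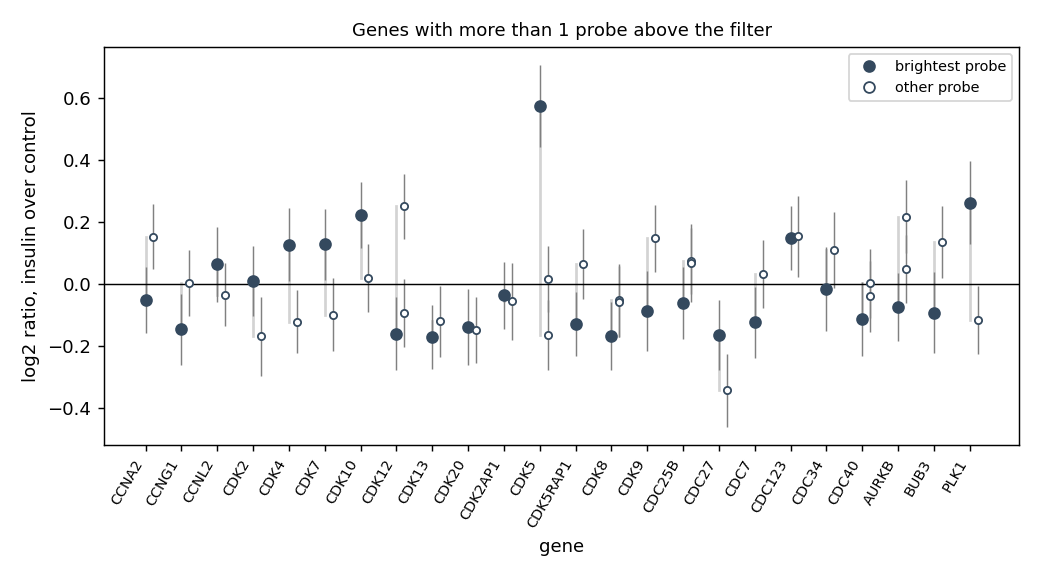
Mean log2 ratio of insulin over control over both doses for every probe of the 24 genes with more than 1 probe above the filter, with filled points for the brightest probe, open points for the others, and bars of 1 SE. The brightest CDK5 probe lies at 0.57 and its 2 other probes at 0.02 and −0.17.

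Lists of genes that work with the cyclins and their kinases were read beside them, and they too were chosen with results of these data known. Of the 16 measured genes of RB, E2F and their complexes, 1 rose with both doses averaged, MYBL2, which encodes the B-MYB factor of the complex that turns on mitotic genes. It had log2 ratios of 0.02, 1.18, 1.97 and 0.55 at INS0.1 and of 1.07, 0.61, 1.47 and 0.27 at INS10, with a mean of 0.89 (SE 0.16, limma adjusted p 0.00389). It was above 0 on all 8 arrays. The median of the list was 0.03. Over all named genes 2.12% rose, and single calls in lists as small as this and those that follow are given as values only.

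SPC24, which encodes an NDC80 complex subunit that ties kinetochores to microtubules, rose as the 1 of 28 in its list, at 0.78 (SE 0.15, limma adjusted p 0.00655), beside a list median of −0.03. NCAPD3, which encodes a condensin II subunit that compacts chromosomes, rose as the 1 of 20 cohesin, condensin and separase genes, at 0.59 (SE 0.12, limma adjusted p 0.0102). It also passed at INS10 alone, at 0.82 (limma adjusted p 0.0334), beside a list median of −0.07. CUL1, which encodes the scaffold of the SCF ubiquitin ligase, was the 1 of 10 in its list, at 0.45 (SE 0.12, limma adjusted p 0.0494), with a list median of 0.05.

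None of the 6 lists that follow held a called gene. They were the CDK inhibitors (6 genes, median −0.04), the chromosomal passenger and Aurora activators (9 genes, median 0.03), the origin licensing factors (18 genes, median −0.07), the checkpoint and CDK1 inhibitory kinases (8 genes, median −0.11), the proliferation markers (13 genes, median −0.04) and the further CDK partners (11 genes, median −0.01). The smallest p in each list belonged to CDKN3 at −0.15, NEK7 at −0.23, GMNN at −0.24, CHEK1 at −0.18, RRM2 at −0.38 and CCNK at 0.44. RRM2, the inducible subunit of the enzyme that makes deoxynucleotides, was below 0 on all 8 arrays (limma adjusted p 0.122). CCNK, the cyclin of CDK12 and CDK13, was above 0 on all 8 (limma adjusted p 0.0728).

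Markers of the embryo's cell types and of other cells that could be present were measured on the same arrays. All 11 trophectoderm markers and 8 of 9 inner cell mass markers were above the filter. For both doses averaged, TEAD4 and GATA2 of the trophectoderm list, SOX2 of the inner cell mass list (1 of 8), APOA1 of the hypoblast list (1 of 6) and CYP11A1 of the cumulus and granulosa list (1 of 8) rose, with log2 ratios of 0.57 to 0.84. PRM1, a sperm protamine and 1 of 5 in its list, fell by 0.64. Over all named genes 2.12% rose and 0.196% fell, and these calls too are given as values only. Of 7 oocyte genes 0 passed. List medians were 0.13, 0.14, −0.06 and −0.01 for trophectoderm, inner cell mass, hypoblast and cumulus or granulosa markers. Those of the oocyte and sperm lists were −0.01 and −0.20.

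The summed normalised intensity of the cumulus and granulosa list was 4512 to 15419 in INS0.1, 8157 to 12228 in INS10 and 5174 to 8918 in control RNA, and 4 of its 12 genes were below the filter. That of the trophectoderm list was 204524 to 228254, 202387 to 240524 and 161991 to 223460 in the same order, that of the inner cell mass list 17526 to 24443, 20856 to 32111 and 17120 to 25566, and that of the sperm list 1042 to 1718, 791 to 1369 and 1105 to 2083. The ranges of the groups overlapped in each of these lists. These ranges do not use the pairing of insulin and control RNA on an array. Their overlap therefore does not show that the groups were alike. The part of these marker genes in the values of CDC2L1 and CDK5 was not tested.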

How the data were processed

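Blastocyst RNA was hybridised to 8 2-colour Agilent arrays. Per the labels' protocols, the RNA was a PicoPure extract that was amplified in 2 rounds and labelled by a guanine-binding chemistry, all of which can alter ratios. The deposited scanner tables hold raw median spot and background intensity values in each channel, per the file headers. The table of log2 ratios that the authors deposited served as an alternative. Against log2 ratios of insulin over control computed from the scanner values, correlations of its columns were 0.991 to 0.999, slopes 0.899 to 1.14 and column medians of −0.02 to 0.01. This comparison gave its base, centring and direction, and whether the authors scaled the arrays to each other is unknown.

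Intensities were corrected with normexp (offset 50) and loess-normalised within arrays, with control and ignored spots at weight 0. A probe was kept if it exceeded the mean plus 2 SD of 153 negative control spots in at least 4 of 16 readings, which left 29384 of 43794 probes and 97 of 114 probes of these genes. Between 44.1% and 58.8% of probes were detected in a channel. The number of arrays sets the precision. Symbols came from the platform annotation, and 69 of 71 were current in the RefSeq gene table and 2 were synonyms there. No sequences or coordinates are given.

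The fit used limma 3.58.1 under R 4.3.3 on all kept probes, with 1 effect per dose and a dye effect over 8 arrays, and p-values were adjusted by Benjamini and Hochberg over all probes. The dye term also takes up any difference between replicates of opposite dye orientation. Deviations from the dose mean of arrays with the same replicate number correlated between the doses at 0.221 to 0.312. These include dye effects, since arrays of a number share the dye orientation. Deviations from the mean of the dose and dye orientation correlated at 0.261 for replicates 1 and 2 and 0.223 for replicates 3 and 4. The numbers, which come from the labels, were read as meeting the criterion for pairing. In the fit with a random block the consensus correlation within a number was −0.04. The reported fit has no block. Fits with the block as a random effect, as fixed effects with a dye effect for each slide, and as a mean over a number were alternatives. The fixed-effects fit takes deviations shared by the arrays of a number out of the spread. Its p-values therefore do not measure the whole spread between replicates.

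The genes and lists were chosen with earlier results of these data known. The rule names genes that passed, the 6 smallest p in each comparison, a core set of cyclins, kinases and mitotic genes, and from each list the genes that passed or the smallest p. Other genes are counted.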

Additional observations from a re-analysis of the deposited data

Results flagged for a closer look

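Among the 134 sets of 4 arrays (67 genes at each dose), 5 held 1 array that lay far from the other arrays of its dose by Dixon's criterion. Chance alone gives about 1 in 20. PLK2 had a log2 ratio of −0.76 on INS0.1 replicate 2, against 0.11 to 0.21 on the other INS0.1 arrays. CDC14A, which encodes a phosphatase and exceeded background in 4 of 16 readings, had −0.26 on the same array, against 0.21 to 0.26. CDK5RAP3, which encodes a protein that binds a CDK5 activator, had 0.84 on INS10 replicate 1, against 0.10 to 0.17. CDC40, which encodes a splicing factor, had −0.42 on INS10 replicate 4, against 0.03 to 0.11. CCNA2 had −0.13 on INS10 replicate 2, against 0.11 to 0.16. None of these 5 genes passed in any comparison.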

How the results depend on the processing

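Alternatives changed 1 choice at a time, except that the fixed replicate block also gave each slide its own dye effect, and no value that was called reversed its direction in any of them. For both doses averaged, limma called 2 of the 67 genes. The count was 1 with probes above background in all 16 readings, 1 without a dye effect, 1 with the mean of a gene's probes, 1 with the replicate block by averaging the arrays of a number, 4 with the replicate block as fixed effects, 0 with a trended, robust variance prior (6 at an unadjusted p under 0.05), and 1 to 2 when 1 array was left out. The 484 probes called became 262 without a dye effect, 0 with the trended, robust prior (2659 unadjusted), 1252 with the fixed block, 270 with the averaged block, and 275 to 605 when 1 array was left out. At INS0.1, 0 of 67 genes became 3 with the fixed block and 0 to 1 without 1 array. The 32 probes called became 2 with normexp offset 16, 9 without background correction, 8 with median centring, 0 with scaling between arrays, 58 with probes above background in all 16 readings, 0 without a dye effect, 0 with the trended, robust prior, 532 with the fixed block, 0 with the dose fitted alone, and 0 to 218 without 1 array. At INS10, 0 of 67 genes passed under any alternative, and the 128 probes called became 0 with offset 16, 0 without a dye effect, 0 with the trended, robust prior, 460 with the fixed block, 297 with the dose fitted alone, and 0 to 199 without 1 array. Of the INS0.1 counts without 1 array, the highest was without INS0.1 replicate 1. For CDC2L1 the one alternative that lost the call was the trended, robust prior. For CDK5 it was also lost without a dye effect (adjusted p = 0.0777), with that prior (0.174) and with the averaged block (0.116). The parts of the block and of the dye effect for each slide in the fixed-block counts were not separated, and the cause of these differences was not tested. The block changed no other call among the 67 genes. INS10 against INS0.1 gave 0 called probes in every alternative run (845 unadjusted at the reported setting). Dim probes and the number of arrays limit what could be detected.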
